A study of Caenorhabditis elegans with 2 samples.

Results

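F56G4.6 and wbp-4 are neighbouring genes on C. elegans chromosome I that are read away from each other, so that a single stretch of sequence lies before both starts. Binding of CEH-90, a homeobox protein, was mapped by chromatin immunoprecipitation and sequencing (ChIP-seq), and the peak between these starts was among the strongest found. The pair was chosen by the signal and rank of that peak, so these describe the choice and were given no test. The 2 genes were taken out of 19973 protein-coding genes of the nuclear chromosomes. All peak summits from 2000 bp before to 2000 bp past the pair were then collected, which gave 4 summits of replicate 1, 10 of replicate 2, 10 of a list pooled from both and 1 of the IDR list. That list is what remained after a threshold on IDR, the irreproducible discovery rate, which scores whether replicates order their peaks alike, and it kept 765 of the 30000 pooled peaks (2.55%).

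The series held 1 group of 2 biological replicates and no second condition. Whole hermaphrodite worms of strain OP210, with the genotype unc-119(ed3) III and the transgene wgIs210, were collected as L1 larvae 6 hours after starved hatchlings had been synchronized. The transgene adds GFP and FLAG to the C terminus of CEH-90, and anti-GFP antibody was used to pull down the chromatin. Many animals and all their tissues were in each sample, so a site in a few cells and a weaker site in all cells cannot be told apart, and no immunoprecipitation from worms without the fusion was analysed here. The lists hold no read counts, which leaves the depth unknown, and the signal per peak is the authors' own value, without a stated scale. It was therefore compared within a list only.

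A homeobox protein carries a DNA-binding homeodomain, and ChIP-seq shows where such a protein was recovered with the chromatin, not whether a gene there responds to it. Where divergent genes share a short stretch before their starts, a peak in it cannot be given to either gene. In C. elegans many messages are also trans-spliced, a step that replaces the first bases of the transcript with a leader, so an annotated start can lie inside the true transcribed stretch. The human protein that shares its name with wbp-4, WBP4, is a component of the spliceosome, the machine that removes introns.

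F56G4.6 (WBGene00010161) lay on the minus strand at 11364326 to 11374334 of chromosome I in build ce11, had 11 exons and encoded 843 amino acids. RefSeq describes its product only as a protein with a Rod_C domain, which is named after ROD, a kinetochore protein of flies and humans. The gene wbp-4 (WBGene00010159) lay on the plus strand at 11374620 to 11380127, with 6 exons and 470 amino acids. RefSeq gives it a U1-type domain, a kind of zinc finger first described in the U1 snRNP of the spliceosome. Each gene had 1 annotated transcript, so each had 1 annotated start. The gap between the starts ran from 11374335 to 11374619 and was 285 bp long. The annotated 5' UTRs were 16 bp for F56G4.6 and 4 bp for wbp-4.

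The peak stood at the same place in every list. Its summit was at 11374441 in replicate 1, 11374436 in replicate 2 and 11374440 in the pooled and IDR lists, so the replicates were 5 bp apart. Over the 717 IDR peaks with a summit within 100 bp in both replicates, the median distance between the replicate summits was 15 bp, and over the 20 strongest it was 4 bp. The pooled summit was 106 bp upstream of the F56G4.6 start and 180 bp upstream of the wbp-4 start, and the middle of the gap was 37 bp further towards wbp-4. In replicate 1 these distances were 107 and 179 bp, and in replicate 2 they were 102 and 184 bp. The summit was thus nearer to F56G4.6 in both replicates, at 37.4% and 35.7% of the way across the gap.

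**Figure D1:**
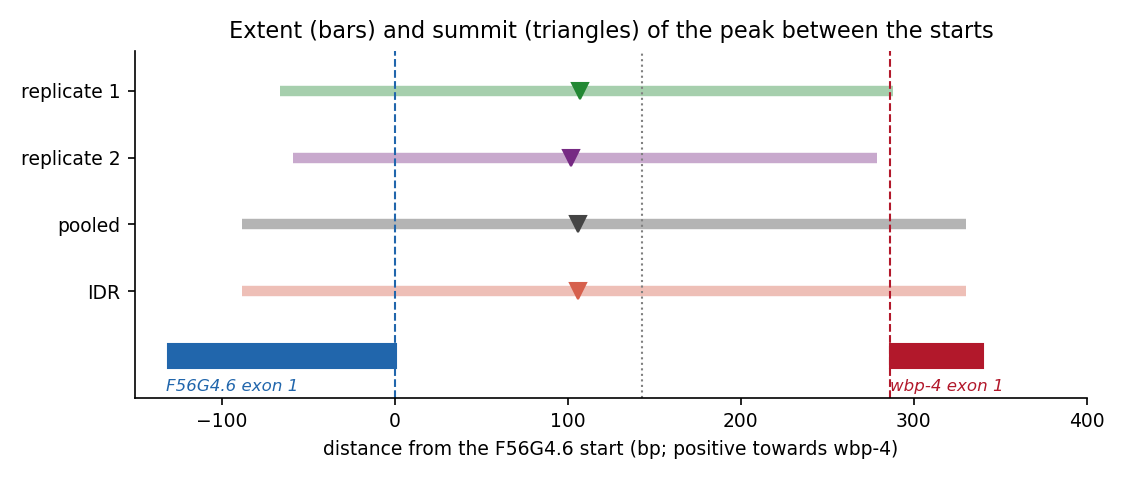
Extent (bars) and summit (triangles) of the peak in the 4 lists, by distance in bp from the F56G4.6 start, with dashed lines at both starts, a dotted line at the middle of the gap and boxes for the first exons. All 4 summits lie on the F56G4.6 side of the middle, between 102 and 107 bp from its start.

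The peak filled the gap and reached into both genes. In the pooled list it ran from 11374246 to 11374664, a width of 419 bp, and covered all 285 bp of the gap, 89 of the 132 bp of the first exon of F56G4.6 and 45 of the 55 bp of the first exon of wbp-4. In replicate 1 it was 355 bp wide and covered 67 bp of the F56G4.6 exon and 3 bp of the wbp-4 exon. In replicate 2 it was 339 bp wide, covered 279 bp of the gap and 60 bp of the F56G4.6 exon, and ended short of wbp-4. These edges are of limited use, because 99.5% of the pooled peaks had 1 width, 430 bp. In the IDR list that width was held by 78.7%, and by 0 of the 20 strongest peaks, which were 319 to 448 bp wide.

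The signal of the peak was 1174 in replicate 1, 1079 in replicate 2 and 2264 in the pooled list, and it ranked 2 in each. It was 86.2 times the median of the replicate 1 list, 63.2 times that of the replicate 2 list and 81.6 times that of the pooled list. The lists include background, so their medians are levels of weak entries and not of sites. Against the IDR list alone, whose median was 107, the signal was 21.1 times as high. In the lists for build ce10, made by the authors from separate alignments of the same samples, the peak was sought by its signal, not by position. The entry nearest in signal to the ce11 peak ranked 2 in each of them, at 1176, 1081 and 2264. These values are therefore not independent of those above.

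The order of the strongest peaks was the same in both replicates as far as rank 3. Just above the pair stood the peak at cux-7, a homeobox gene, on chromosome III, and the pair reached 92.4% of its signal in replicate 1, 97.9% in replicate 2 and 95.4% in the pooled list. Just below came the intronic peak of Y56A3A.7, also on chromosome III, with signals of 1061, 951 and 2040. The pair was 1.11 times as high as that peak in replicate 1 and 1.13 times in replicate 2. With 2 replicates in 1 group, these differences in order were not tested. The authors' q-value does not set the pair apart: all 475 peaks tied at the highest -log10 q of the pooled list, 2.98, the pair's among them, shared rank 1 by that measure.

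**Figure D2:**
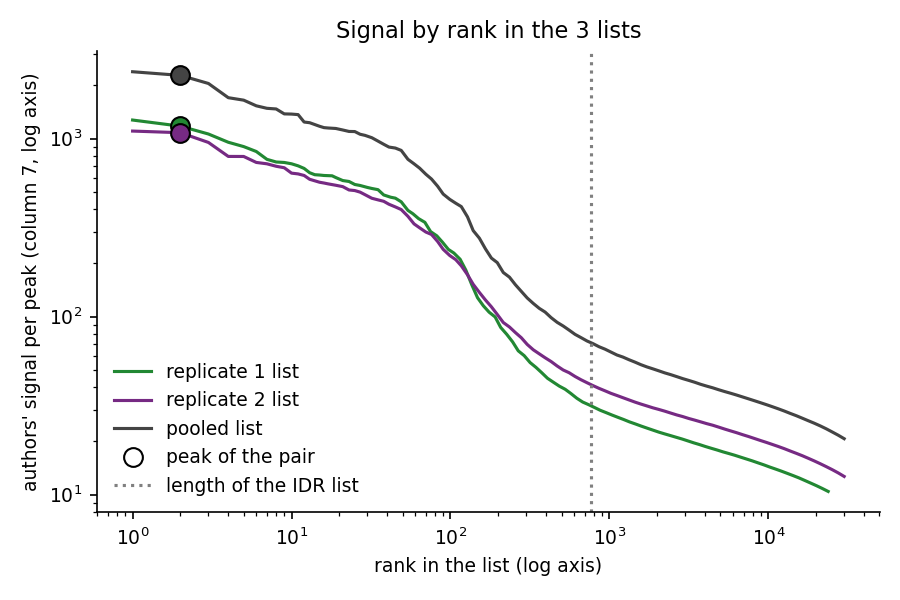
Authors' signal per peak against rank in the replicate 1, replicate 2 and pooled lists, both on log axes, with the peak of the pair circled and the length of the IDR list, 765, dotted. The pair sits at rank 2 in each list, at 1174, 1079 and 2264.

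The ratio of replicate 2 to replicate 1 for the pair was 0.919. Over the 717 matched IDR peaks the median ratio was 1.13 (quartiles 0.914 and 1.51), and over the 20 strongest it was 0.891, with a range from 0.770 to 1.01. The pair was itself among these 20, and both ends of their range belonged to other peaks. The ratio has no absolute meaning, since the scaling of the 2 lists is not stated.

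Around the gap the lists held no other strong summit. The region of 19802 bp took in, besides the pair, F56G4.7, annotated as an F-box associated protein, png-1, which encodes the peptide N-glycanase that strips sugar chains from misfolded glycoproteins, and the noncoding RNA gene F56G4.8. The 3 weaker summits of replicate 1 had signals from 11.2 to 14.1, the 9 of replicate 2 from 16.9 to 26.0 and the 9 of the pooled list from 20.7 to 36.3. The peak of the pair was 83.4, 41.4 and 62.3 times the strongest of these in the same list. The highest -log10 q among the 21 weaker entries was 0.280, against 1.30 for a q of 0.05, and their best rank was 3540.

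**Figure D3:**
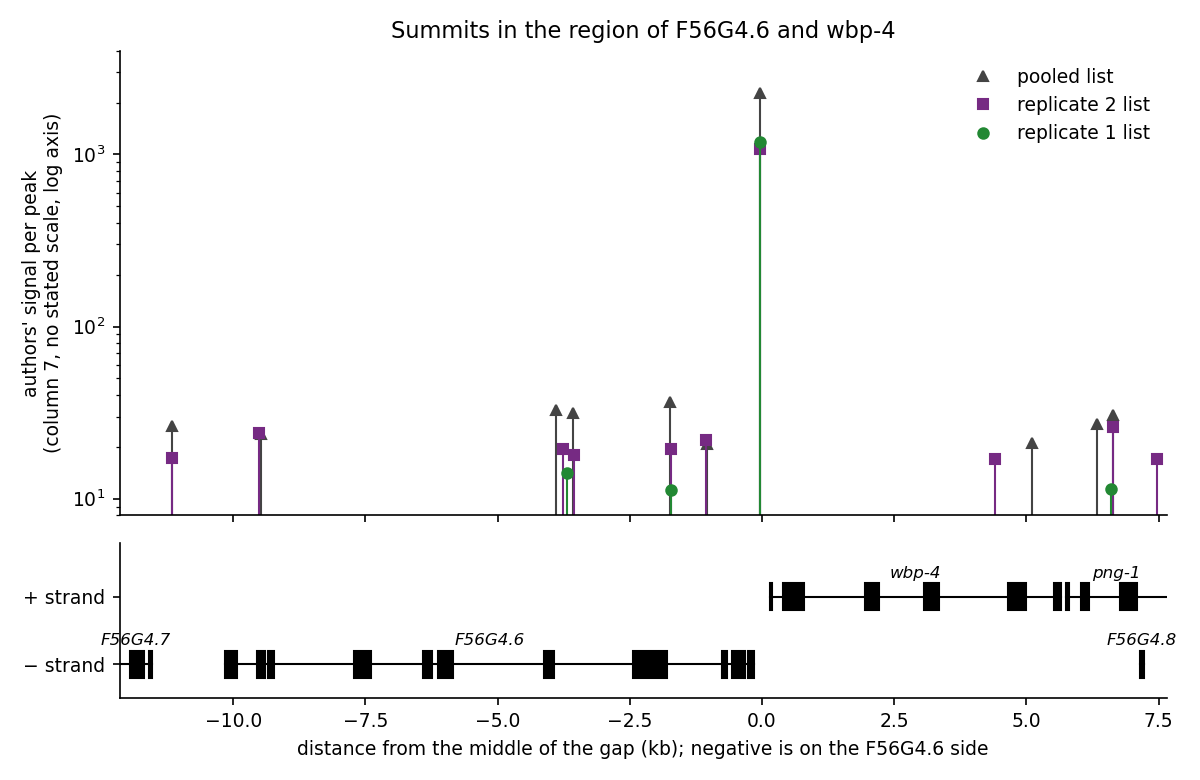
Authors' signal (log axis) of every summit of the replicate 1, replicate 2 and pooled lists in the region, by distance in kb from the middle of the gap, above the exons (boxes) of the genes on each strand. The peak of the pair is at 1079 to 2264 and every other summit is at 36.3 or less.

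Of the 21 weaker entries, 10 lay in introns of F56G4.6, 5 in introns of png-1 and 2 in introns of wbp-4, 2 in a coding exon and 2 between genes. These are entries over the 3 lists, so 1 place can be counted in each of them. The gene F56G4.6 alone takes up 10009 of the 19802 bp of the region. Of the 9 in the pooled list, 2 had a summit within 100 bp in both replicates, 4 in 1 replicate and 3 in neither. The first of the 2 matched in both replicates was in intron 3 of F56G4.6, 1605 bp inside the gene. Its signals were 11.2 in replicate 1, 19.4 in replicate 2 and 36.3 in the pooled list. Its ranks were 20327, 10171 and 6279. The other was in intron 2 of png-1, with signals of 11.4, 26.0 and 30.8 and ranks 19181, 3540 and 11013. A further entry, in intron 4 of F56G4.6, was within 100 bp in the replicates but had no pooled summit that near. Its signals were 14.1 in replicate 1 and 19.5 in replicate 2, with ranks 10711 and 9983. None of these entries was kept in the IDR list. In the exons only exon 10 of F56G4.6 held a summit, with 24.1 as its signal in replicate 2 and 23.8 in the pooled list, and replicate 1 had none there.

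The other starts of the region carried no IDR summit of their own. The start of png-1 lies 103 bp past the end of wbp-4 on the same strand, and none of the 4 lists had a summit in that stretch. The nearest summit to it was 574 bp downstream in the pooled list (signal 27.2, rank 15860), 838 bp downstream in replicate 1 and 881 bp downstream in replicate 2. F56G4.7 had an entry 365 bp upstream of its start in replicate 2 (17.2) and in the pooled list (26.6), and the nearest entry of replicate 1 was 7837 bp away. Along chromosome I, with 148 IDR peaks, the next IDR summits were 51087 bp away on the F56G4.6 side (signal 112, rank 357) and 42338 bp away on the wbp-4 side (signal 84.9, rank 553). Over all IDR peaks the median distance to the nearest other IDR summit was 29933 bp, and 39.9% of them had theirs further away than the pair.

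Gaps of this kind were common, and few held a site. In all, 2495 pairs of neighbouring protein-coding genes were divergent with 1 to 2000 bp between their starts, and 242 of these gaps (9.7%, exact 95% interval 8.57 to 10.9%) had an IDR summit. The pair's presence among them follows from how it was chosen. Its 285 bp were shorter than most: 18.4% of all such gaps and 19.4% of those with an IDR summit were shorter still. The median was 672 bp over all gaps (quartiles 362 and 1145) and 510 bp over those with a summit (quartiles 323 and 813). With the gaps in 4 bins of about equal number by length, the shortest, 5 to 361 bp, held the pair, and in it 69 of 624 had an IDR summit (11.1%, 8.71 to 13.8%). The share was 14.1% (11.4 to 17.0%) for gaps of 362 to 672 bp, 7.56% (5.60 to 9.92%) for 673 to 1145 bp and 6.10% (4.35 to 8.28%) for 1146 to 2000 bp. The intervals cover counting error over gaps only.

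**Figure D4:**
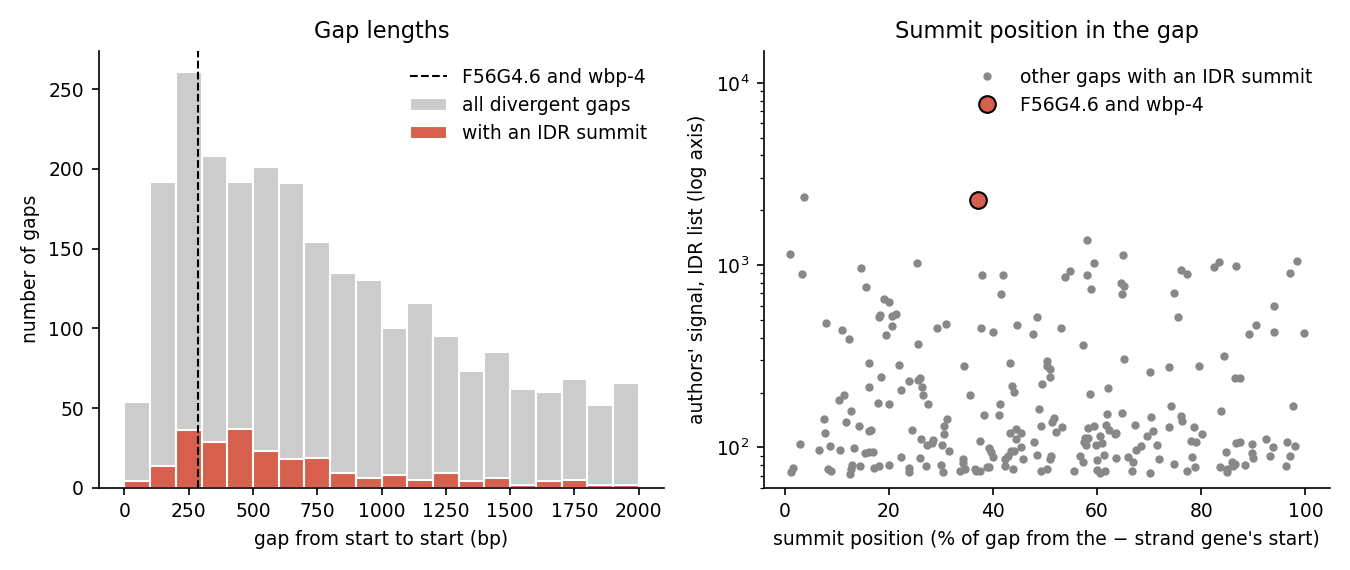
Left, number of divergent gaps by length in bins of 100 bp, all 2495 in grey and the 242 with an IDR summit in red, with a dashed line at the 285 bp of the pair. Right, authors' signal in the IDR list (log axis) against summit position as a percentage of the gap from the start of the minus-strand gene, with the pair marked at 37.1% and 2264.

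The median signal over the 242 gaps was 124, and the pair was 18.3 times as high. Its summit was 12.9% of the gap off the middle, against a median of 21.8%, and 106 bp from the nearer start, against a median of 154 bp (quartiles 70.3 and 220). Of the 20 strongest IDR peaks, 5 had the summit in a divergent gap, and of all 765 it was 249 (32.5%). The gaps most like the pair in signal, by Euclidean distance of log2 signal over the 2 replicates, were cux-7 and C07H6.2 (0.12), F01D4.5 and ced-5 (1.03), C53B4.3 and pdzd-8 (1.42), C56A3.6 and cav-2 (1.44), and E02H1.1 and tag-124 (1.57). The same 5 were the strongest other gaps by pooled signal, which largely follows from the pair's own place near the top. Their signals were 2374 for cux-7 and C07H6.2, above the pair, and 1373, 1147, 1140 and 1053 for the rest, below it. The 5 gaps include ced-5, needed for the engulfment of dying cells, and the caveolin gene cav-2.

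In those 5 gaps the summit took different places. It was 6 bp from the cux-7 start and 158 bp from that of C07H6.2 in a gap of 163 bp, and 18 bp from the C53B4.3 start in a gap of 1813 bp. At E02H1.1 and tag-124 it was 2 bp from the tag-124 start in a gap of 127 bp. Away from the edges lay the summit between F01D4.5 and ced-5, 263 and 190 bp from the starts in a gap of 452 bp, and that between C56A3.6 and cav-2, 460 and 247 bp from the starts in a gap of 706 bp. The pair lay between these: its nearer start was 106 bp from the summit, against 18 bp or less in the former gaps and 190 and 247 bp in the latter.

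Sequence was not used to choose the pair. Within 50 bp of its pooled summit the GC content was 47.5%, against a mean of 43.3% (SD 9.11) over the 765 IDR summits and 33.7% over the other 29235 pooled summits, and 63.0% of the IDR windows were below it. In windows of 51 bp near the summit the GC content was highest at 66.7%, in windows centred 10 and 30 bp on the wbp-4 side. The whole gap had 34.7%, close to the 35.4% of the chromosomes, so the GC-rich stretch was short. Over all IDR summits the mean in such windows was highest at the summit itself, at 46.3%. There the pair had 56.9%, and 78.8% of the IDR windows were below it.

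**Figure D5:**
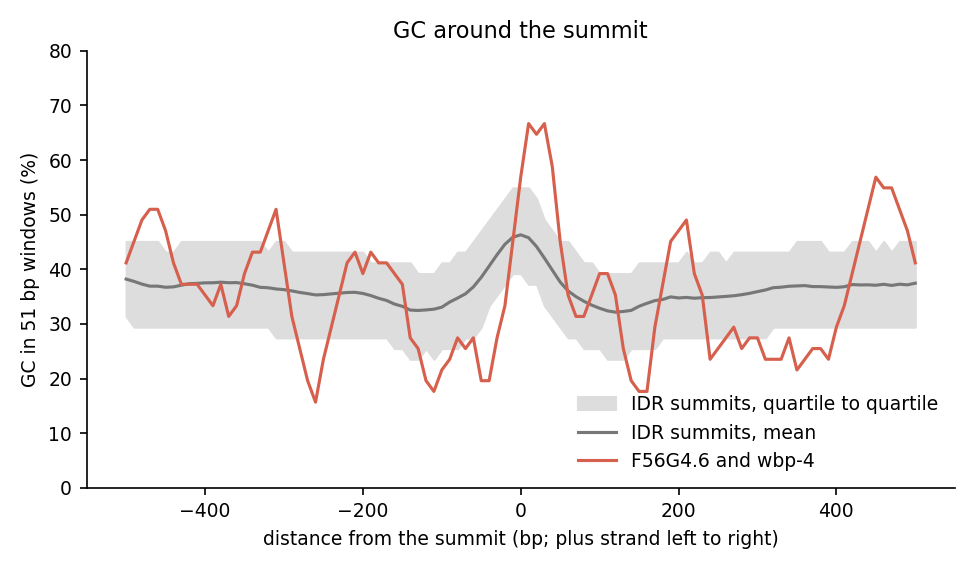
GC content in 51 bp windows by distance in bp from the summit, for the pair (red), the mean of the 765 IDR summits (dark grey) and the range between their quartiles (light grey). At the summit the line of the pair is at 56.9%, against 46.3% for the mean. It reaches 66.7% at 10 and 30 bp on the wbp-4 side, where the mean is 45.8% and 42.1%.

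The window of 50 bp on either side of the summit was searched on both strands for 5 words of 6 bases that an earlier analysis of these peaks had found at summits, so a match is no independent evidence. GGCCAC was present 1 time, on the minus strand, from 13 to 18 bp on the wbp-4 side of the summit. It was in 19.1% of the IDR windows and 2.06% of the other pooled windows. On the same strand CGGCCA lay from 14 to 19 bp, in an overlap of 5 bases, so that both matches are 1 place, 122 bp from the F56G4.6 start. That word was in 17.5% of the IDR windows and 2.04% of the others. The other 3 words had no match in the window of the pair: GGCCTA was in 18.8% of the IDR windows and 2.18% of the others, while the shares were 17.6% and 1.94% for CTAGGC, and for ACGCGC 14.0% and 1.81%. Windows with 2 of the 5 words, as here, made up 11.2% of the IDR windows, 1.23% of the others and 8 of those of the 20 strongest peaks. None of the 5 words was found in 59.9% of the IDR windows and 92.7% of the others. TAAT, the core bound by many homeodomains, matched 4 times in the window of the pair, 3 times on the minus strand and 1 time on the plus strand, all from 23 to 44 bp on the F56G4.6 side, with 2 of the 4 overlapping each other and none overlapping the words above. It was in 50.5% of the IDR windows and 67.6% of the others.

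The same words can be read at 4 of the 5 gaps most like the pair, which are shown to set the match of the pair beside them. Each stretch is 30 bases of the plus strand of build ce11 from the RefSeq genome, with bases that belong to a match of any of the 5 words in capitals.
cux-7 and C07H6.2 (III): tgaatttggattCTAGGCCatgcagtcttt
F01D4.5 and ced-5 (IV): gcataaatcctCGGCCACggtttgtggact
C56A3.6 and cav-2 (V): aggcggagttttCTAGGCCACcactcaaga
E02H1.1 and tag-124 (II): caattctagtccGCGCGTcgtgtactcctc
The stretches start at 7520845 on III, 10483901 on IV, 13556844 on V and 9591273 on II. The gap of F01D4.5 and ced-5 held the words of the pair in the same overlap, on the plus strand, starting 8 and 7 bp before its summit. Its window also held CTAGGC, from 34 bp before the summit and outside the stretch shown, in an overlap with GGCCTA, which makes 4 of the 5 words. In the gap of C56A3.6 and cav-2 the word GGCCAC began 2 bp past the summit and overlapped CTAGGC and GGCCTA. The gap of cux-7 and C07H6.2 held CTAGGC, overlapping GGCCTA, but not the words of the pair. At E02H1.1 and tag-124 only ACGCGC was found, on the minus strand, and C53B4.3 and pdzd-8 had none of the 5. Both words matched in the pair were thus present in 1 of the 5 gaps, and 1 of them in another.

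For the spliceosome, 12 genes of the tri-snRNP and of the B complex, the stage at which human WBP4 is found, were looked up by symbol. An IDR summit lay within the promoter window, 1000 bp upstream to 200 bp downstream of a start, at 3 of the 12 (25%, exact 95% interval 5.49 to 57.2%), against 4.46% of all protein-coding genes. They were smu-2 on chromosome II (2 bp from the summit, signal 424, rank 111), smu-1 on I (6 bp, 94.7, rank 460), both splicing regulators, and eftu-2 on III (657 bp, 81.7, rank 581), which encodes a GTPase of the U5 snRNP. The summit at smu-2 lay in the gap of 723 bp between it and the divergent gene Y49F6B.8, whose start was 722 bp away. The signals of these 3 sites were between 81.7 and 424, against 2264 between F56G4.6 and wbp-4. The site of eftu-2 was outside a window of 500 bp upstream, with which the count was 2 of the 12. The count was also 2 with the nearest start alone and without replicate 2, so it depends on these settings. No IDR summit was in the window of prp-8, snrp-200, prp-3, prp-4, prp-6, prp-31, prp-38, mfap-1 or ubl-5. The list is short and was drawn up with earlier results of these data known, so its interval is no test against the share of all genes. Its members reflect the annotation of wbp-4 only, which shares its peak with F56G4.6.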

How the data were processed

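The authors deposited, for builds ce10 and ce11, narrowPeak lists of peaks with background for each replicate and for both pooled, and an IDR-thresholded list. Per the deposited file descriptions, each replicate or pooled list was derived from alignments and 1 shared control, and the IDR list from the other 3. The sources used here name no aligner, peak caller, IDR threshold or version. Signal values (column 7), the authors' own, and their −log10 q-value (column 9) were used as deposited, to describe and rank peaks within a list. Read depth was unknown.

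Positions were read in ce11 with Ensembl release 115 gene models (WBcel235) and the RefSeq genome, and are 1-based. Distances run from summit to gene start, and upstream is counted against transcription. Summits within 100 bp were matched. A divergent gap lay between neighbouring protein-coding genes with 1 to 2000 bp between starts. Intervals over gaps and genes are exact (Clopper-Pearson) at 95%. The bins of gap length were chosen after seeing the data. No group comparison was possible, so no test was made. The named genes were the pair, every gene with a record in the region, the 5 strongest and 5 most alike other divergent gaps, the peaks next in rank, and the listed spliceosome genes. The members, the spliceosome list and the 6-base words were chosen with earlier results of these data known. The sequence of the pair is not reported here. The functions for ranks, gaps and words were tested on simulated data. Python 3.11.15, pandas 2.3.3, numpy 2.4.6, scipy 1.17.1 and matplotlib 3.10.9 were used.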

Additional observations from a re-analysis of the deposited data

How the results depend on the processing

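In the ce10 pooled list the entry nearest in signal to the peak of the pair ranked 2, but it was not located by position. The rank of the peak, 2 in the pooled list, was also 2 without replicate 1 and without replicate 2. With column 9 (−log10 q) as the ranking value it became 1, tied among 475 peaks. Its share of the highest signal was 92.4 to 97.9% with either replicate left out. The distance to F56G4.6 was 102 to 107 bp, and that to wbp-4 was 179 to 184 bp, with either replicate left out. Counted to the first base of the start codon, the distances were 122 bp to F56G4.6 and 184 bp to wbp-4. The number of summits in the region ranged from 4 without replicate 2 to 10 without replicate 1, and was 9 and 12 with flanks of 1000 and 5000 bp. The share of divergent gaps with a summit was 9.34 to 9.58% with a replicate left out, 5.73% for the strongest 382 peaks of the IDR list and 11.4% for gaps of 1 to 1000 bp. The IDR list draws on both replicates, so leaving 1 out does not show how stable that list is. The same holds for the count of spliceosome genes below. GC at the summit was 45.5 to 48.5% with a replicate left out, 56.9% within 25 bp and 37.8% within 100 bp. The means over the IDR summits were 46.3% within 25 bp and 39.1% within 100 bp, so in the widest window the pair was below the mean. The number of word matches was 2 in each of these settings. The count of spliceosome genes with a site was 2 or 3 in its 5 other settings. No paired analysis was possible because the series holds 1 group. The precision of these lists cannot be judged from depth, which is unknown.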
